A study of Mus musculus with 6 samples.

Results

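Cell adhesion genes of the cadherin, protocadherin, integrin, contactin, NCAM and CEACAM families, with the integrin ligand gene Npnt, were examined in pituitary glands of wild-type and Bmal1-/- mice. Members were chosen by gene symbol in the platform annotation, leaving out Cdh5, and gave 82 genes out of 12393 with a probe set assigned to a single gene. The mice were C57BL/6J males 8 to 12 weeks old, kept on 12 h of light and 12 h of darkness and killed at lights off, zeitgeber time 12. Each genotype was represented by 3 arrays, and each array carried RNA of 3 glands pooled from mice of the same genotype. The arrays were numbered 1 to 3 for wild type and 4 to 6 for Bmal1-/-. Arntl encodes BMAL1, a circadian transcription factor that dimerises with CLOCK and acts through E-box elements. No source used here says how the Bmal1 allele was made or whether littermates were used.

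Cadherins are calcium-dependent adhesion proteins that bind like cadherins on the neighbouring cell and are anchored to actin through catenins. Integrins are heterodimers of an alpha and a beta subunit that bind extracellular matrix, and nephronectin, the product of Npnt, is one of their matrix ligands. Contactins, NCAM and the CEACAM proteins belong to the immunoglobulin superfamily, and contactins are held at the membrane by a lipid anchor. In the anterior pituitary, cadherin contacts link hormone cells into networks, and folliculostellate cells run between them.

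The array values were MAS5 intensities on a linear scale, and the number of arrays limits the precision. Arntl itself read 39.6, 51.7 and 38.6 on the wild-type arrays and 112.1, 102 and 127.5 on the Bmal1-/- arrays. No source used here places that probe set inside or outside the deletion, so it does not check the labels, and every direction is relative to arrays labelled Bmal1-/-. Pearson's r across tested probe sets ran from 0.980 to 0.986 for arrays of the same genotype and from 0.970 to 0.976 for arrays of different genotypes. Pituitary hormone transcripts were bright on every array: the summed signal of Gh and Ghrhr was 18786 to 21066 in wild type against 15835 to 17129, without overlap, and Prl read 12323 to 14923. Gh (log2 fold change -0.27, limma adjusted p = 0.0217) and Ghrhr (-0.66, 0.00553) both fell. All 8 endothelial markers and 5 of 7 macrophage markers were also bright enough to be tested.

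The promoters of 2 genes that fell, Ceacam1 and Ceacam10, are printed here because they are near copies of each other and share the same E-box. The promoter of Cntn1, which rose, is printed because it holds a match to the core of the element bound by REV-ERB and ROR receptors. The sequences are the 250 bases before the annotated start from RefSeq, build GRCm38.p6, at chr7:24776917-24777166 on the + strand for Ceacam10, chr7:25477626-25477875 on the - strand for Ceacam1 and chr15:92050915-92051164 on the + strand for Cntn1. Capitals mark the matches, CACGTG in the CEACAM genes and TGACCCA in Cntn1, which is TGGGTCA read on the other strand.
Ceacam10: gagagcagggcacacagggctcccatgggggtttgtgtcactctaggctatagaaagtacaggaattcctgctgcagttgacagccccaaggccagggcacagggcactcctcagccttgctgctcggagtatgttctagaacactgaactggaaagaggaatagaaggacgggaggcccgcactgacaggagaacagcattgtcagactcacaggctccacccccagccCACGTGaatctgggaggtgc
Ceacam1: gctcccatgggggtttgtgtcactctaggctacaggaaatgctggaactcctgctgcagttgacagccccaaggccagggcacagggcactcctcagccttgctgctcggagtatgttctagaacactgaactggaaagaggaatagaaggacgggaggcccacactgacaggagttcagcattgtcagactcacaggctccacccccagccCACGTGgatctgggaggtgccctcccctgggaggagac
Cntn1: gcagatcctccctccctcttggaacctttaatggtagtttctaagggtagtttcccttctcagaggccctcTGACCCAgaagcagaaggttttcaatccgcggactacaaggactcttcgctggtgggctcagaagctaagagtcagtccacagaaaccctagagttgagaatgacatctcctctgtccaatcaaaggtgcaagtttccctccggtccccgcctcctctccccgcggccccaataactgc

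The Ceacam10 and Ceacam1 promoters aligned without gaps over 232 bases, of which 222 were identical, or 95.7%. The E-box lay in that aligned stretch in both genes. Its first base was 20 bases before the first annotated start of Ceacam10, 57 before its other start and 38 before the start of Ceacam1. The promoter of Ceacam2 aligned with that of Ceacam1 over a shorter stretch, with 104 of 119 bases identical, and its window held no CACGTG. RefSeq promoters of 300 bases, reaching 50 bases past the start, were at hand for 41 of the 82 members. CACGTG was in those of 3 of the 41 members, Ceacam1, Ceacam10 and Cdh15, a share not above the 8.09% of all 27025 genes. The variant E-box CACGTT, searched on both strands as AACGTG too, was in those of 2 of the 41, Itga9 and Pcdh15, against 5.44% of all genes. TAGGTCA or TGGGTCA, on either strand, was in those of 3 of the 41, Cntn1, Cntn6 and Itgb5, a share not above the 7.35% of all genes. In Cntn1 the match began 179 bases before the first of 3 annotated starts, and the windows of its other starts held none. TTATGTAA on either strand, a D-box, was found in that of Cntn4, against 1.11% of all genes. The promoters of Npnt held none of these letters. A match is a description of the sequence, and binding was not measured.

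**Figure D1:**
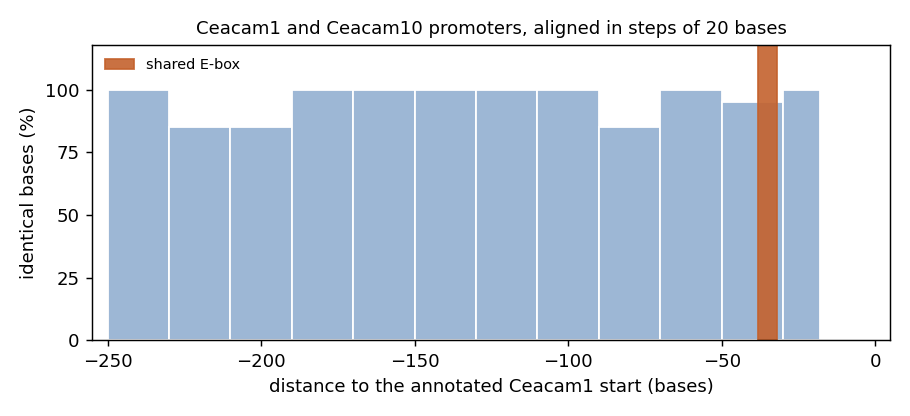
Share of identical bases (percent, vertical axis) between the Ceacam1 and Ceacam10 promoters in steps of 20 bases, by distance in bases from the annotated start of Ceacam1 (horizontal axis), with the shared E-box as an orange band. Identity was 85% to 100% in every step, and the E-box began 38 bases before the Ceacam1 start.

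Of the 82 genes, 22 were bright enough to be tested and 4 of them changed. Npnt and Cntn1 rose in the Bmal1-/- glands, and Ceacam10 and Ceacam1 fell. No cadherin, protocadherin, integrin subunit or NCAM gene passed the test. Tests used limma over 13576 probe sets on log2(intensity + 16), a scale that understates the change of dim genes, with a Benjamini-Hochberg adjusted p under 0.05 as the threshold. Over all 8033 tested genes, with 1 probe set each, 5.66% passed, 3.00% upward and 2.66% downward, and among the 22 members the share was 18.2%. The members were chosen with earlier results of these data known, and Npnt was added singly, so the share of members is a description and not a test. At the level of probe sets, 5.54% passed. At 7 of the 22 members, or 31.8%, the values of the genotypes did not overlap, against 26.4% of all tested genes. One of those members, Itgb2, was bright enough for the test only through its wild-type arrays. The median log2 fold change was 0.19 over the members and within 0.01 of 0 over all tested genes. In whole glands, fewer cells of a type and less RNA per cell cannot be told apart.

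**Figure D2:**
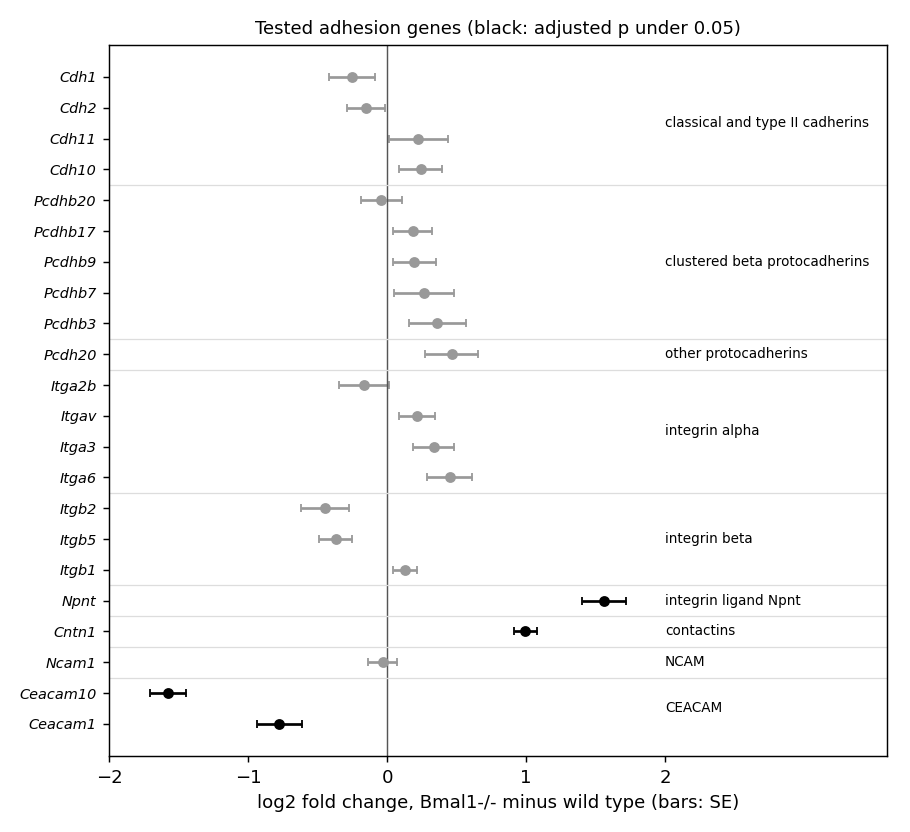
Log2 fold change, Bmal1-/- minus wild type (horizontal axis, bars are SE), of the 22 tested adhesion genes by family, with genes at an adjusted p under 0.05 in black and the others in grey. Npnt (1.56) and Cntn1 (0.99) lie to the right and Ceacam10 (-1.58) and Ceacam1 (-0.78) to the left, while the grey genes lie between -0.45 and 0.46.

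Npnt encodes nephronectin, a basement membrane protein that carries an RGD motif for integrins. Its brightest probe set read 26.0, 31.1 and 17.4 in wild type and 90.6, 115.4 and 105.0 on the Bmal1-/- arrays. All 3 Bmal1-/- arrays were higher than any wild-type array, at a mean of 103.7 ± 12.5 (SD, n = 3) against 24.8 ± 6.92. The log2 fold change was 1.56 (SE 0.16, limma adjusted p = 0.000151), which is 2.95-fold on that scale. A second probe set read 19.0, 15.4 and 10.8 in wild type and 44.4, 59.9 and 65.8 on the Bmal1-/- arrays, with a log2 fold change of 1.22 (SE 0.17) and a limma adjusted p of 0.00163. Its wild-type mean of 15.1 was under the lowest level tested, which corresponds to an intensity of 17.3, so it entered the test only through the Bmal1-/- arrays and is given as a description. The other 3 of its 5 probe sets read at most 15.5 on any array and were not tested.

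The main receptor of nephronectin is the integrin of the alpha 8 and beta 1 subunits. Itga8 read between 0.4 and 8.7 on the 6 arrays, below the level needed for a test. Itgb1, the beta subunit that pairs with most alpha subunits, read 269.2, 278.3 and 308.9 in wild type and 317.3, 304.4 and 316.4 in Bmal1-/- glands. Those ranges overlapped, and its log2 fold change was 0.13 (SE 0.09, limma adjusted p = 0.443).

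Cntn1 encodes contactin 1, an immunoglobulin superfamily protein of neurons and glia that takes part in axon and myelin contacts. It read 461.0, 531.0 and 503.7 in wild type and 919.8, 1034.6 and 1074.9 on the Bmal1-/- arrays. The genotypes stood well apart, at 499 ± 35.3 against 1010 ± 80.5, and Cntn1 rose by 0.99 on the log2 scale (SE 0.08, limma adjusted p = 5.05e-05). Its other probe set gave 271.0, 275.9 and 237.8 against 516.1, 534.3 and 599.4, a log2 fold change of 1.03 (SE 0.09). The rise was therefore about as large on both probe sets.

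Cell type markers were followed beside Cntn1. The summed signal of 4 measured myelin genes was 86.5 to 119.8 on wild-type arrays, and 143.2 to 159.7 on those of Bmal1-/- glands. Most of that sum was Mbp, myelin basic protein, at 101.5, 84.4 and 99.9 in wild type against 149.3, 147.4 and 133.3. Mbp was the only 1 of the 4 tested and rose (log2 fold change 0.52, limma adjusted p = 0.0210). Mag read 13.6, 1.4 and 0.5 in wild type against 9.3, 1.2 and 1.4, with overlap, and Mobp and Mog read at most 5.6. The summed signal of 7 posterior lobe glia and axon markers was 237.9 to 362.7 in wild type against 213.3 to 236.3. None of the 4 tested passed. Oxt stood at -0.57 (limma adjusted p = 0.0565), Nefm at -0.51 (0.0684) and Nefl at -0.24 (0.471), all lower in Bmal1-/- glands. Only the astroglial water channel gene Aqp4 was higher, at 0.24 (0.436). The part of these markers in the Cntn1 result was not tested.

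The 4 other contactins measured, Cntn2, Cntn3, Cntn4 and Cntn6, were below the level for a test, and none read above 14.9 on any array. Cntn6 read 0.1, 0.3 and 0.4 in wild type and 9.3, 7.1 and 7.3 in Bmal1-/- glands, a split of the genotypes at a level where MAS5 values are noisy. With every probe set tested, its adjusted p was 0.0516. Cntn2 split the other way, at 6.0, 12.7 and 3.9 in wild type against 2.2, 3.7 and 2.6.

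Ceacam10, a mouse gene for a secreted protein of the carcinoembryonic antigen family, fell most among the members. It read 197.4, 218.3 and 196.2 in wild type and 46.4, 68.3 and 60.1 on the Bmal1-/- arrays. The highest Bmal1-/- array was far under the lowest wild-type array, and the means were 58.3 ± 11.1 and 204 ± 12.4. The log2 fold change was -1.58 (SE 0.13, limma adjusted p = 3.92e-05), or 2.98-fold lower on that scale. A second probe set fell from 177.3, 112.4 and 131.2 to 35.8, 60.3 and 44.1, for a log2 fold change of -1.31 (SE 0.18) and a limma adjusted p of 0.00135. The last of its 3 probe sets read at most 7.5.

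Ceacam1, which encodes a membrane receptor of epithelia, vessels and leukocytes, fell by less. It read 68.7, 67.5 and 46.8 in wild type and 25.3, 26.9 and 34.0 in Bmal1-/- glands. The genotypes did not overlap, with means of 61.0 ± 12.3 and 28.7 ± 4.63, and the log2 fold change was -0.78 (SE 0.16) at a limma adjusted p of 0.0170. The call was lost on omitting wild-type replicate 1 (adjusted p = 0.0630), without Bmal1-/- replicate 4 (0.0618) or 5 (0.0644), and with no filter on low values (0.0603). Of its 8 probe sets 4 were tested and all 4 had values below 0, but the other 3 did not pass, at -0.18, -0.23 and -0.33. The probe set at -0.18 had a Bmal1-/- mean of 16.6, under the lowest level tested. It entered the test only through its wild-type arrays, so its direction is given as a description.

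The CEACAM genes are close copies, and the 2 probe sets annotated to several of them were left out. Those 2 had log2 fold changes of -0.40 (limma adjusted p = 0.176) and -0.35 (0.349), with overlap, and neither passed. Whether transcripts of Ceacam10 add to the Ceacam1 signal was not tested, since probe sequences were not used here. Of 8 endothelial markers 1 rose, Plvap (log2 fold change 0.40, limma adjusted p = 0.0287), and the other 7 did not pass, with Kdr lowest at -0.38. Their summed signal was 692.3 to 784.5 in Bmal1-/- glands against 589.1 to 689.5, and without Plvap the sums overlapped, at 361.6 to 405.1 against 329.9 to 399.2. The summed signal of 7 macrophage markers was 299.7 to 338.5 against 404.2 to 449.6, and 1 of the 5 tested fell, C1qa (-0.48, limma adjusted p = 0.0280). Their part in the CEACAM results was not tested. The remaining members Ceacam2, Ceacam9, Ceacam11, Ceacam12 and Ceacam14 were below the level for a test, with no reading above 24.4. Ceacam2 read 14.4, 13.7 and 24.4 in wild type and 15.2, 4.5 and 1.9 in Bmal1-/- glands, with overlap.

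**Figure D3:**
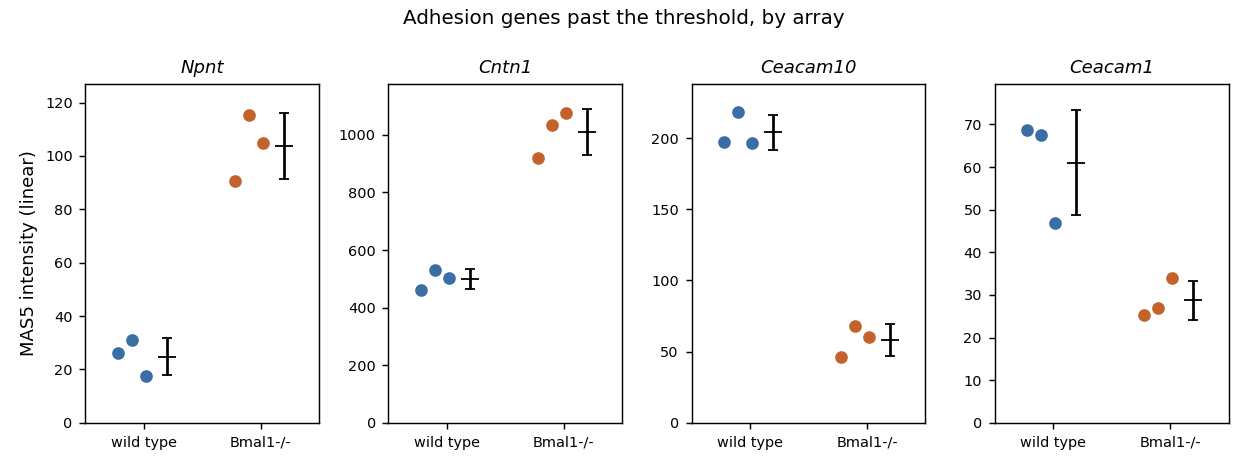
MAS5 intensity (linear vertical axis from 0, a scale of its own for each gene) of Npnt, Cntn1, Ceacam10 and Ceacam1 on the 3 wild-type (blue) and 3 Bmal1-/- (orange) arrays, with the mean and SD in black beside the points. No Bmal1-/- point falls within the wild-type range for any of the 4 genes.

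**Figure D4:**
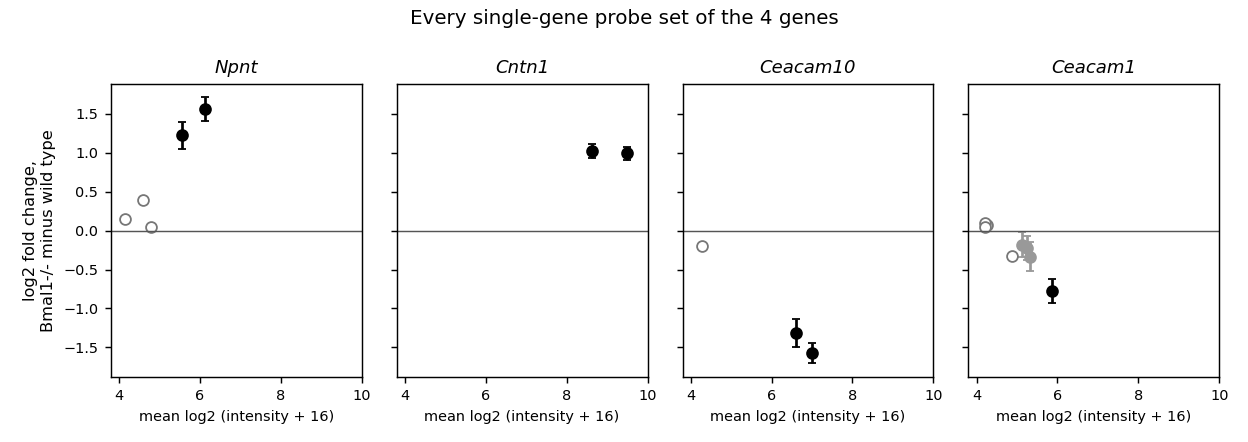
Log2 fold change, Bmal1-/- minus wild type (vertical axis), of each single-gene probe set of the 4 genes against its mean log2 (intensity + 16) over the 6 arrays (horizontal axis). Filled points were tested (black at an adjusted p under 0.05, grey otherwise, bars are SE) and open points were too dim. Both tested probe sets of Npnt (the dimmer one only through its Bmal1-/- arrays), of Cntn1 and of Ceacam10 are black, against 1 of 4 for Ceacam1. The dimmest of those 4 was tested only through its wild-type arrays.

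The integrin subunits gave 7 tested genes of 21, and none passed. Among alpha subunits, Itga6, a laminin receptor subunit, came nearest, at 64.1, 74.7 and 50.5 in wild type and 86.0, 75.3 and 115.8 in Bmal1-/- glands. These ranges just failed to meet, and the log2 fold change was 0.45 (SE 0.16, limma adjusted p = 0.134). Its dimmer probe set gave 0.54 (adjusted p = 0.0509), and with both averaged the gene passed (adjusted p = 0.0430). Itga3, another laminin receptor subunit, stood at 0.34 on the log2 scale (SE 0.15, limma adjusted p = 0.216). Itgav, the subunit of RGD-binding vitronectin receptors, read 150.0, 167.1 and 142.1 in wild type and 146.7, 186.2 and 212.3 in Bmal1-/- glands, with overlap and a log2 fold change of 0.21 (SE 0.13). Itga2b, the platelet subunit, had -0.17 (SE 0.18).

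Among beta subunits, Itgb5, a partner of the alpha V subunit, read 144.4, 136.6 and 132.8 in wild type and 88.3, 109.8 and 112.1 in Bmal1-/- glands. The genotypes did not overlap, but the log2 fold change of -0.37 (SE 0.12) had a limma adjusted p of 0.0840. Its 3 dimmer probe sets gave -0.22, -0.21 and 0.03. Itgb2, the beta subunit of leukocyte integrins, read 19.9, 31.1 and 20.5 against 16.5, 10.6 and 12.0, which also did not overlap (log2 fold change -0.45, SE 0.17, limma adjusted p = 0.154). The Bmal1-/- mean of 13.0 was under the lowest level tested, so Itgb2 entered the test only through its wild-type arrays. The macrophage sum given above and the sum of 5 lymphocyte markers, 60 to 66.7 against 85.8 to 103.2 in wild type, were lower in Bmal1-/- glands, though neither lymphocyte marker that could be tested passed. Their part in the Itgb2 values was not tested.

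The other 14 integrin subunits were below the level for a test, and the highest reading among them was 21.0. They included the leukocyte alpha subunits Itgal, Itgam and Itgax, the collagen receptor subunit Itga2 and the fibronectin receptor subunit Itga5. Itgal, Itgam and Itgax are the 3 members that lie within 20 Mb of Arntl. Itgb6, an epithelial subunit, read 4.2, 1.6 and 3.7 in wild type and 8.1, 9.5 and 7.1 in Bmal1-/- glands. Its other probe set overlapped, at 8.0, 2.4 and 6.2 against 5.7, 1.0 and 7.1.

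Of 46 cadherin and protocadherin genes, 10 were tested, none passed and none had genotypes that stood apart. Cdh2, N-cadherin, found on endocrine cells of the gland, read 258.6, 191.7 and 248.2 in wild type and 251.1, 188.8 and 183.3 in Bmal1-/- glands. The readings were mixed between the genotypes, and the difference was -0.16 on the log2 scale (SE 0.14, limma adjusted p = 0.566). Cdh1, E-cadherin, an epithelial cadherin also found on folliculostellate and stem cells, read 56.5, 35.5 and 41.4 against 31.3, 30.8 and 41.1, with a log2 fold change of -0.25 (SE 0.16). The summed signal of 7 folliculostellate and stem markers, Cdh1 among them, was 2313.3 to 2662.6 in Bmal1-/- glands against 2138.1 to 2212.5. Most of that sum was Epcam (0.11, limma adjusted p = 0.532). Of the 6 tested only Aldh1a2 passed, and it rose (0.58, limma adjusted p = 0.00836). The part of these markers in the Cdh1 values was not tested. Of the type II cadherins, Cdh10 had 0.24 (SE 0.16) and Cdh11, known from mesenchymal cells, 0.22 (SE 0.21). One Bmal1-/- array, replicate 4, held the high Cdh11 reading, 146.7 against 71.7 and 81.7 on the others.

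The remaining 8 classical and type II cadherins and all 4 atypical ones were below the level for a test, at readings up to 22.8 and 14.3. Among the atypical cadherins, Cdh13, the T-cadherin without a cytoplasmic tail, split the genotypes. It read 8.4, 9.6 and 9.2 in wild type and 1.3, 0.6 and 0.5 in Bmal1-/- glands. With every probe set tested it passed downward (log2 fold change -0.58, limma adjusted p = 0.0471). Its dimmer probe sets did not pass in that fit, at -0.42 (limma adjusted p = 0.187) and -0.09 (0.873). The brighter probe set of Cdh23 split the same way, at 7.3, 11.3 and 14.3 in wild type against 1.0, 5.9 and 0.6. MAS5 values this low are noisy. Among the 60 members too dim for a test, 9, or 15%, had genotypes that did not overlap. The share over all genes too dim for a test was 13.1%. Of the 9 members, 7 were lower and 2 higher in Bmal1-/- glands, and directions were not counted over all dim genes. Array medians over all probe sets were 31.7 to 32.2 in Bmal1-/- glands against 33.5 to 34.3 in wild type, without overlap.

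The protocadherins with a single-gene probe set were mostly dim. No gene with a Pcdha or Pcdhg symbol had such a probe set, so the alpha and gamma clusters are not covered here. Of 22 clustered beta protocadherins, which give single neurons their surface identity, 5 were tested and none passed. Pcdhb9, Pcdhb17, Pcdhb3, Pcdhb7 and Pcdhb20 had log2 fold changes of 0.20, 0.18, 0.36, 0.26 and -0.04. Of 8 protocadherins outside the cluster only Pcdh20 was tested. It read 74.0, 98.2 and 67.0 in wild type and 155.9, 118.1 and 81.1 in Bmal1-/- glands, with overlap and a difference of 0.46 on the log2 scale (SE 0.19, limma adjusted p = 0.184). Its dimmer probe set had -0.02. The 24 others read at most 24.9. Ncam1, the neural cell adhesion molecule found on endocrine cells, read 268.1, 351.3 and 310.2 against 298.8, 283.9 and 320.3, with a log2 fold change of -0.03 (SE 0.10). Its second probe set stood lower in Bmal1-/- glands, at 166.6 to 180.1 against 189.5 to 262.0, and had -0.35 (limma adjusted p = 0.102). Ncam2 read at most 15.6.

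Genes that work with these families were taken from 7 lists of 127 measured genes. Of the 89 tested, 2 rose and 2 fell, or 4.49% against the 5.66% of all tested genes, with a median log2 fold change of 0.02. Of 13 catenins and junction adaptors, 16 integrin adaptors and kinases, 8 desmosomal and other cadherin superfamily genes, 16 further immunoglobulin adhesion genes and 8 genes of NCAM polysialylation or shedding, none passed. The 2 smallest p-values in each of those lists were at Ctnna1, alpha E-catenin (0.30, limma adjusted p = 0.0587), Ctnnd2 (0.36, 0.0674), the kindlin gene Fermt2 (0.32, 0.0568), Itgb1bp1 (0.31, 0.123), desmoplakin, Dsp (0.58, 0.0518), Celsr3 (-0.18, 0.413), Nectin3 (0.52, 0.0518), Nrcam (0.42, 0.0722), Psen2 (0.28, 0.137) and Furin (-0.46, 0.164). Of 19 integrin matrix ligands 1 rose and 2 fell, and of 10 contactin partners 1 rose. Beside the matrix genes, the summed signal of 5 pericyte and smooth muscle markers was 510 to 547.6 in Bmal1-/- glands against 773.3 to 901.5. Most of that sum was Rgs5, the only 1 of the 3 tested that passed, which fell (log2 fold change -0.77, limma adjusted p = 0.000244). Pdgfrb stood at -0.10 (limma adjusted p = 0.727) and Acta2 at -0.36 (0.291). The sum of 5 fibroblast markers was 1247.9 to 1298.2 against 1342.7 to 1374.7, with Dcn, decorin, falling (-0.80, limma adjusted p = 0.000312) and the collagen gene Col1a2 rising (0.30, 0.0399). Their part in the values of Npnt and of the matrix ligands was not tested.

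Ccn3, a matricellular protein that binds integrins, read 37.9, 83.8 and 39.3 in wild type and 243.3, 174.1 and 157.2 in Bmal1-/- glands. The genotypes stood apart, by 1.61 on the log2 scale (SE 0.22, limma adjusted p = 0.00163), and its other probe set rose too (1.09, SE 0.24). Tgfbi, a secreted RGD protein, fell from 54.4 ± 9.92 to 24.7 ± 4.35 (log2 fold change -0.79, limma adjusted p = 0.0150). The other tested probe sets of Tgfbi had -0.05 and -0.26 and did not pass, and its call ended on omitting wild-type replicate 3 (adjusted p = 0.0681) or Bmal1-/- replicate 5 (0.0655), and when dim probe sets were kept (0.0561). With its probe sets averaged, Tgfbi did not pass (-0.33, adjusted p = 0.135).

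Nid1, which links laminin and collagen IV in basement membranes, fell from 71.2 ± 12.3 to 43.2 ± 4.88 (log2 fold change -0.55, limma adjusted p = 0.0463). The Nid1 call ended on leaving out any array but wild-type replicate 2 (adjusted p up to 0.161, without wild-type replicate 3), when dim probe sets were kept (0.111), when the variance model had no trend (0.0593) and after quantile normalization (0.0614). It also ended with the probe sets of Nid1 averaged (-0.36, adjusted p = 0.141), and the other one, too dim for a test, read 10.9, 21.0 and 22.4 in wild type and 12.0, 12.5 and 17.5 in Bmal1-/- glands. App, the amyloid precursor protein, a binding partner of contactins, rose from 2978 ± 207 to 3699 ± 356 (log2 fold change 0.31, limma adjusted p = 0.0431). The App call ended when any 1 of wild-type replicates 1 and 3 and Bmal1-/- replicates 5 and 6 was left out (adjusted p up to 0.171, for replicate 5). It also ended when dim probe sets were kept (0.122) and without the trend (0.170). The other tested probe set of App had 0.17 and did not pass, nor did the average of its probe sets (0.17, adjusted p = 0.270).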

How the data were processed

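Pituitary RNA was measured on 6 Affymetrix arrays, 3 per genotype. The deposited table holds linear intensity values, made with MAS5 per the submitters' processing notes. The 2% trimmed mean, averaged over the 3 arrays of a genotype, was 100 for both genotypes. MAS5 subtracts a mismatch background, so low values are noisy. No source used here gives the MAS5 version or detection calls. The 64 control probe sets were left out, as were the 8 probe sets that list a member together with other genes. Per gene, the probe set with the highest mean of log2(intensity + 16) over all 6 arrays was used, from 139 single-gene probe sets of the members. The brightest 60% of probe sets, 13576 in all, were tested with limma 3.58.1 in R 4.3.3 (lmFit, eBayes with an intensity trend, two-sided), with Benjamini-Hochberg adjustment over all of them and a threshold of 0.05. The lowest mean level tested corresponds to an intensity of 17.3. For single genes, 3 arrays against 3 cannot reach an exact two-sided permutation p under 0.1, which each of the 4 changed genes gave.

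The members, companion lists and promoter motifs were chosen with earlier results of these data known. Values by array are given for members past the threshold, the brightest member of each family and members singled out after their values were seen. Promoters were aligned with Biopython 1.88 (local alignment). Gene positions in the GRCm38.p6 table were used only to find neighbours of Arntl. Alternatives were other pseudocounts (1 and 64), quantile normalization, equal array medians, other filters (none, or the top 40%), other variance models, array weights, averaged or fewer probe sets, other thresholds and leaving out each array.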

Additional observations from a re-analysis of the deposited data

How the results depend on the processing

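Npnt, Cntn1 and Ceacam10 kept their direction and passed under each alternative in which their probe set was tested, and the 4 changed adhesion genes stayed 4 with other pseudocounts, quantile normalization, equal medians, other variance models and array weights. With no filter there were also 4, but Cdh13 took the place of Ceacam1. The count was 2 (Cntn1 and Ceacam10) with the top 40% of probe sets, where 13 members were tested and Npnt and Ceacam1 were not, and 3 to 4 with 1 array left out. When a gene's probe sets were averaged, 3 passed, Cntn1, Ceacam10 and Itga6, and Npnt and Ceacam1 were too dim to test. The companion count of 4 became 1 with no filter, 2 without the intensity trend and 8 with robust estimation, and ran from 1 to 10 with 1 array left out (10 without wild-type replicate 2). The cause was not tested. The count of 752 probe sets became 330 with no filter and 407 without the trend, and ran from 314 (without wild-type replicate 3) to 950 (without wild-type replicate 2) with 1 array left out, in fits that have fewer arrays. Of the 13 genes followed through the alternatives (the 4 changed members, 5 other members and 4 companions), none reversed; the other genes named were not followed. No paired analysis was possible because the genotypes share no replicate numbers.

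The 60 members too dim for a test read at most 24.9, a level at which MAS5 values are noisy. No call was made on them, except that Cdh13 passed when no filter was used.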
